A study of Mus musculus with 36 samples.

Results

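D3 and R1 are both established mouse embryonic stem (ES) cell lines, and they were the reference cells of a study of induced pluripotent stem (iPS) cells. The comparison described here sets the 2 arrays of D3 cells, which were labelled as on MEF medium (MEF commonly stands for mouse embryonic fibroblast), against the 4 arrays of R1 cells, which were labelled as grown on mouse ES cell (mESC) medium. These 6 arrays were taken by their labels out of 36. The other 30 arrays held iPS clones made with Oct4, Sox2 and Esrrb (OSE, 8 clones), with Oct4, Sox2 and Klf4 (OSK, 11 clones) or with Oct4, Sox2, Klf4 and Tbx3 (OSKT, 11 clones). No allele, transgene or agent is given in the labels for either ES line. The labels do not settle whether MEF medium means medium made for fibroblasts, medium conditioned by them or the presence of feeder cells, and the make-up of the media is not given in the sources used here. Every D3 array differed from every R1 array in both line and medium, so line and medium cannot be told apart in any value below. The submitters describe the 4 and the 2 arrays as biological replicates, and nothing says whether they came from separate cultures grown at separate times.

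ES cells are grown from the inner cell mass of the blastocyst and keep the capacity to form every tissue of the embryo. A circuit of transcription factors around Pou5f1 (Oct4), Sox2 and Nanog holds that state, and the cytokine LIF, acting through Stat3, keeps mouse ES cells in it in culture. Fgf and ERK signalling moves them towards a primed state that resembles the later epiblast. Mouse ES cells are often kept on a layer of growth-arrested fibroblasts, whose collagens, proteases and chemokines can then appear in RNA from the dish.

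Values are normalized bead-array signals on the log2 scale, so a difference of 1 is a 2-fold difference, and levels of different genes, which come from different probes, are not compared. Of 18720 measured probes, 9116 to 9720 stood above background on the 6 ES arrays, and the 75th percentile of the signal ran from 462 to 666 intensity units. Precision is limited by the number of arrays, 2 against 4. All 9 measured ES cell markers (Pou5f1, Sox2, Nanog, Zfp42, Esrrb, Tdgf1, Utf1, Fgf4 and Alpl) stood above background on all 6 arrays, as the labels call for. Of 10 measured fibroblast markers, Col1a1, Thy1, Dcn, Twist1 and Pdgfrb stood above background on all 6 arrays, whereas Col1a2, Col3a1, Postn and Lum did so on none. Markers of other types were mixed. Among them Gata4, Gata6 and Pdgfra (primitive endoderm), Krt8 and Tfap2c (trophoblast) and Tubb3 (neural) stood above background on all 6 arrays, whereas Afp and Sox17 (endoderm), Gata3 and Elf5 (trophoblast) and Sox1, Pax6 and Nes (neural) did so on none. In RNA from a whole dish, fewer cells of a type and less RNA per cell cannot be told apart.

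The 2 lines gave similar but separable profiles. The root mean square difference over the 9779 tested features was 0.153 to 0.214 between R1 arrays, 0.167 between the D3 arrays and 0.409 to 0.452 between a D3 and an R1 array, against 0.608 to 0.795 between an iPS clone and an R1 array. In the limma fit with Benjamini-Hochberg adjustment, 1075 features (11% of those tested) had an adjusted p under 0.05 and are called changed. Of these, 516 (5.28%) were higher and 559 (5.72%) lower in D3. The D3 and R1 arrays did not overlap in 1072 of the 1075, which a call for a difference in mean makes likely. Over all tested features, both D3 arrays lay above all R1 arrays in 28.1% and below them in 22.8%. The larger changes were mostly falls in D3. A called change of at least 2-fold was found downward for 184 features (1.88%) and upward for 41 (0.419%). With signals below background raised to the lowest signal above it, the numbers were 152 and 32. Without D3 replicate 1 the calls numbered 335, and without D3 replicate 2 they numbered 390. When arrays were scaled by their medians instead, 249 features were higher and 534 lower, and in the authors' scaled values 347 were higher and 585 lower. The D3 pair differed by no more than R1 arrays did from each other. Averaging arrays that close leaves 1 value for each line, which for R1 follows from the limit used, the widest distance between R1 arrays (0.214). The spread then comes from the iPS clones alone, with each line assumed to vary as they do, and there were 70 calls (54 lower and 16 higher in D3), all of which were among the 1075.

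**Figure D1:**
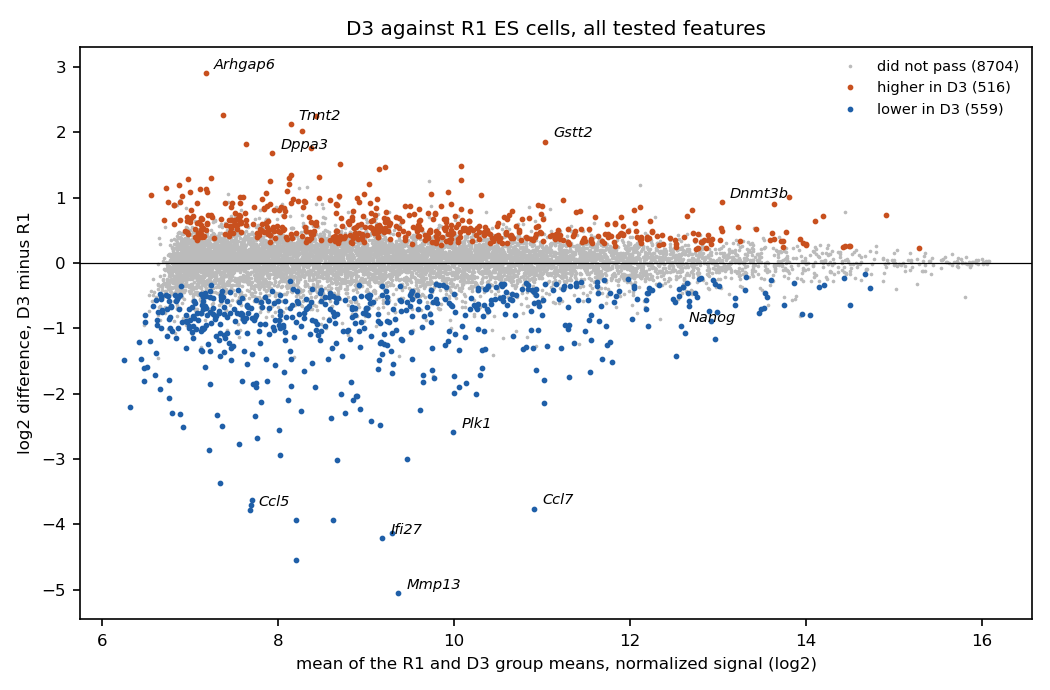
Difference between the D3 and R1 means (vertical axis, log2) against the mean of both (horizontal axis, normalized signal, log2) for the 9779 tested features, with the 516 higher and the 559 lower features in colour and grey for those that did not pass. The points farthest from 0 lie below the line, with Mmp13 at -5.05, while the highest, Arhgap6, lies at 2.91.

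A list of genes of fibroblasts and feeder cells had the lowest median of the 31 gene lists. Of its 39 tested members, 18 were lower and 1, Dcn, was higher, against 5.72% and 5.28% of all features. The list median was -0.86 against 0.04 over all features. The proteases Mmp13 and Mmp3, which cut collagens and other matrix proteins, were the furthest down of the list. Mmp13 read 11.84, 11.92, 11.83 and 11.97 on the R1 arrays and 6.90 and 6.78 on the D3 arrays. The D3 signals were below background, so the fall was at least 30.2-fold (log2 difference -5.05, SE 0.20, adjusted p 2.92e-20, limma). Mmp3 read 10.59, 10.62, 10.53 and 10.62 in R1 and 6.70 and 6.62 in D3, a fall of at least 12.2-fold (SE 0.34, adjusted p 1.67e-10, limma). For both proteases the R1 arrays lay above, and the D3 arrays below, all 30 iPS clones. Mmp10, a related protease, fell at least 3.22-fold. Mmp13, Mmp3 and Mmp10 passed the filter on dim probes through R1 alone. Taken by symbol after the values were seen, 5 of 16 tested matrix metalloproteinases, Adamts proteases and Timp inhibitors were lower and none was higher. The 5 were Mmp13, Mmp3, Mmp10, Mmp2 and Timp2, against 5.72% lower among all features. Mmp2 and Timp2 were not called without either one of the D3 arrays (adjusted p 0.198 to 0.268).

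Further secreted proteins were among the lowest named genes. Mgp, an inhibitor of calcification in cartilage and vessels, read 11.19, 11.34, 11.50 and 11.41 in R1 and 7.27 and 7.19 in D3, a 17.5-fold fall (SE of the log2 difference 0.55, adjusted p 1.28e-06, limma). Ccn5, a secreted protein of the CCN family, read 9.55, 9.53, 9.68 and 9.43 in R1 and 5.71 and 5.98 in D3, a fall of at least 5.95-fold (adjusted p 3.46e-07, limma). The rule that named both genes required that the lines did not overlap. In both, the D3 arrays lay below every iPS clone while the R1 arrays lay among them. Lgals3bp, a secreted glycoprotein that binds galectins, read 10.15, 10.19, 10.05 and 10.29 in R1 and 6.28 and 6.21 in D3, a fall of at least 9.14-fold (SE 0.34, adjusted p 1.22e-10, limma), with R1 above and D3 below all clones. Igfbp4, which binds insulin-like growth factors, was 4.74-fold lower (SE 0.22, adjusted p 3.26e-09, limma). Of 8 tested Igfbp and Ccn genes, 5 were lower (Ccn5, Igfbp4, Igfbp7, Ccn2 and Igfbp2) and none higher. Over all features 5.72% were lower and 5.28% higher, and the median of the 8 was -1.42. Ccn5 was below background in D3 and passed the filter on dim probes through R1 alone. Igfbp7, Ccn2 and Igfbp2 were not called without either one of the D3 arrays (adjusted p 0.062 to 0.159). Lox, which crosslinks collagen and elastin, read 12.19, 12.02, 12.21 and 11.97 in R1 and 10.01 and 9.91 in D3 (log2 difference -2.14, adjusted p 1.15e-08, limma).

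The collagens followed with smaller differences. Of 16 tested collagen genes 7 were lower and none higher, against 5.72% and 5.28% of all features, with a median of -0.64. Col6a1, a chain of the microfibrillar collagen VI, read 9.26, 9.32, 9.35 and 9.27 in R1 and 7.78 and 7.87 in D3 (log2 difference -1.47, SE 0.19, adjusted p 6.57e-07, limma). Col1a1, a chain of the main collagen of fibroblasts, read 9.26, 9.39, 9.09 and 9.33 in R1 and 7.86 and 8.23 in D3 (log2 difference -1.22, SE 0.31, adjusted p 0.00727, limma). Both lines lay below all iPS clones for these collagens. The exception in the list was Dcn, a small proteoglycan that binds collagen, which read 7.65, 7.65, 7.94 and 7.77 in R1 and 8.72 and 8.67 in D3 (log2 difference 0.95, adjusted p 0.000394, limma).

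The mean over the 39 members of the fibroblast list was 10.28 to 10.33 on the R1 arrays and 9.16 on both D3 arrays. The difference was negative for 36 members, and for 32 both D3 arrays lay below all R1 arrays, against 22.8% of all features. In the limma fit 20 members did not pass, among them Thy1 (log2 difference -0.22, adjusted p 0.79), Twist1 (-0.16, adjusted p 0.75), Fn1 (-0.07, adjusted p 0.91) and Vim (-0.56, adjusted p 0.22, limma). Thy1 is a surface protein and Twist1 a transcription factor of fibroblasts, Fn1 is fibronectin and Vim is vimentin. A separate list of 24 tested matrix and adhesion genes had a median of -0.07. Of these, 2 were higher (Cldn4 and Gja1) and 1 lower (Nid1), against 5.28% and 5.72% of all features. Cldn4 and Gja1 were not called without either one of the D3 arrays (adjusted p 0.124 to 0.198). The fibroblast list held fewer lower genes without either one of the D3 arrays, as happened over all features. Col1a1 was not called without D3 replicate 1 (adjusted p 0.17).

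Several chemokines, the secreted proteins that draw leukocytes, were lower in D3. Of 34 measured chemokine genes, taken by symbol after the values were seen, 12 passed the filter on dim probes. Of these, 7 were lower in D3 and none higher, against 5.72% and 5.28% of all features. Their median was -1.56 (-1.50 with signals below background raised to its limit). Ccl5, Cxcl5 and Ppbp were below background in D3 and passed through R1 alone, so the filter had a part in this count. The chemokines that did not pass were too dim on the ES arrays to be tested. Ccl5, which draws T cells and monocytes, read 9.53, 9.30, 9.82 and 9.62 in R1 and 5.67 and 5.90 in D3, a fall of at least 6.02-fold (SE 0.30, adjusted p 2.6e-11, limma). Ccl7, a monocyte chemokine, read 12.62, 12.70, 12.99 and 12.83 in R1 and 8.95 and 9.11 in D3, a 13.5-fold fall (SE 0.59, adjusted p 2.33e-05, limma). Ccl2, the classical monocyte chemokine, read 9.96, 10.14, 10.39 and 10.21 in R1 and 7.06 and 7.26 in D3, an 8.08-fold fall (SE 0.58, adjusted p 0.000468, limma). No D3 array reached the lowest R1 array for any of these chemokines, which the rule that named them required.

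The neutrophil chemokines showed the same order. Cxcl5 read 9.24, 8.92, 9.06 and 8.90 in R1 and 5.64 and 5.68 in D3, a fall of at least 4.14-fold (adjusted p 2.2e-10, limma). Cxcl1 read 11.06, 11.02, 11.13 and 11.03 in R1 and 9.22 on both D3 arrays, a 3.58-fold fall (SE 0.15, adjusted p 2.6e-11, limma). Ppbp, best known from platelets, fell at least 5.69-fold (adjusted p 1.13e-05, limma). All 4 R1 arrays lay above the highest of the 30 iPS clones for Ccl2, Ccl5, Ccl7, Cxcl1, Cxcl5 and Ppbp, and the D3 arrays lay within the range of the clones for all of these except Cxcl1, where they lay above it. Ccl2, Cxcl1 and Cxcl5 are also members of the fibroblast list, and what part other cells in the dish had in the chemokine signals was not tested.

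**Figure D2:**
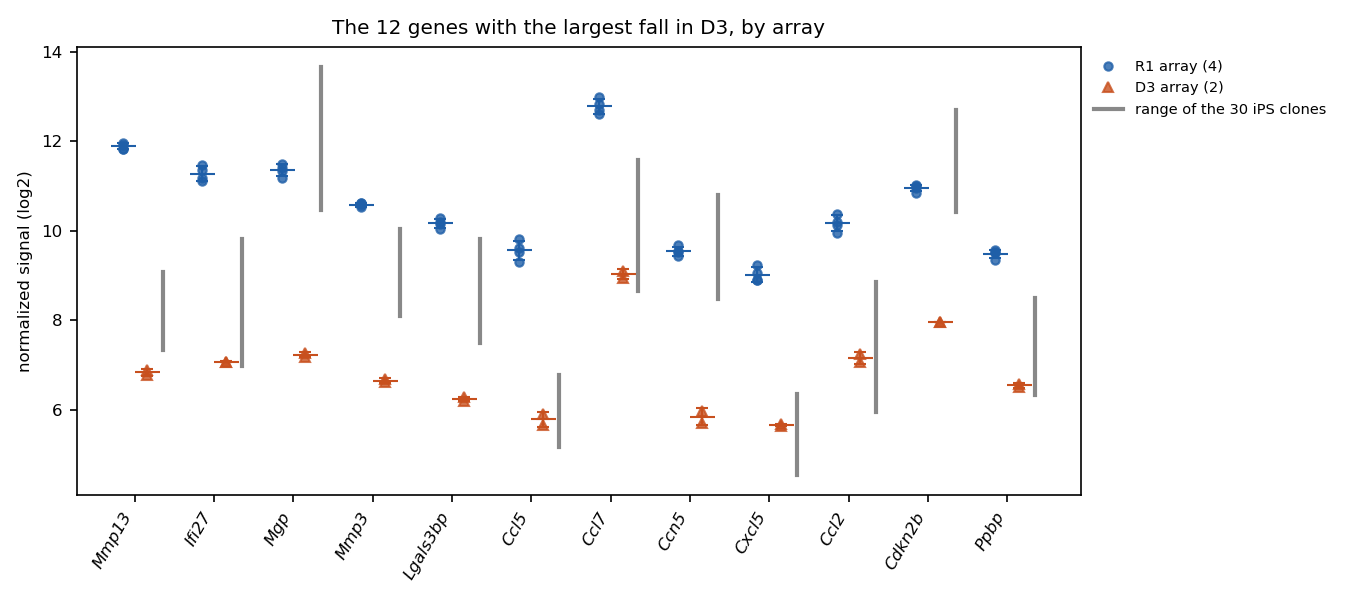
Normalized signal (log2, vertical axis) of the 12 lowest named genes on the 4 R1 arrays (circles) and the 2 D3 arrays (triangles), with bars for the mean and SD of each line and a grey bar from the lowest to the highest of the 30 iPS clones. A lack of overlap between the lines was a condition for choosing the 12 genes. Mmp13, Mmp3 and Lgals3bp have R1 above and D3 below the clones.

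Interferon-response genes were lower in D3. Of 19 tested members of this list, 11 were lower and none was higher, against 5.72% and 5.28% of all features. The members had a median of -0.77 (-0.65 with signals below background raised to its limit). Their mean was 9.78 to 9.85 on the R1 arrays and 8.70 and 8.69 on the D3 arrays. Ifi27, an interferon-induced membrane protein, was the furthest down. It read 11.36, 11.13, 11.47 and 11.18 in R1 and 7.07 and 7.08 in D3, an 18.5-fold fall (SE 0.42, adjusted p 4.69e-09, limma). Ifit3, which limits viral protein synthesis with other Ifit proteins, read 8.91, 8.96, 8.93 and 8.94 in R1 and 6.24 and 6.09 in D3, a fall of at least 3.89-fold (SE 0.19, adjusted p 7.17e-13, limma). Both genes were higher on all 4 R1 arrays than on any iPS clone, and the D3 arrays lay among the clones.

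Oas1g, of the family that senses double-stranded RNA, read 9.88, 10.01, 9.76 and 9.95 in R1 and 7.94 and 7.80 in D3, a 4.09-fold fall (SE 0.24, adjusted p 2.11e-07, limma). Irgm1, a GTPase that acts on vacuoles holding microbes, read 8.90, 8.82, 9.03 and 8.89 in R1 and 6.58 and 6.56 in D3, a fall of at least 3.82-fold (adjusted p 2.93e-05, limma). Rsad2, an antiviral enzyme, read 7.63, 7.41, 7.91 and 7.55 in R1 and 5.69 and 5.70 in D3, a fall of at least 1.57-fold (adjusted p 1.33e-06, limma). Irf7, a transcription factor of the response, fell at least 1.40-fold (adjusted p 0.000599, limma). The D3 signals of Ifit3, Irgm1, Rsad2 and Irf7 were below background on both arrays. These genes passed the filter on dim probes through R1 alone, so the filter had a part in the count of lower members. Ifitm3, a membrane protein that hinders viral entry, was bright in both lines and differed less, at 13.31 to 13.41 in R1 and 12.52 and 12.43 in D3 (log2 difference -0.89, SE 0.09, adjusted p 3.56e-09, limma).

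Other members of the response did not pass. Irf1 differed by 0.12 (adjusted p 0.76), Stat2 by -0.71 (adjusted p 0.13), Bst2 by -0.56 (adjusted p 0.17) and Psmb9 by -0.15 (adjusted p 0.82, limma) on the log2 scale. Irf1 and Stat2 are transcription factors, Bst2 tethers budding virus and Psmb9 is a subunit of the immunoproteasome. Fewer members were called lower without either one of the D3 arrays or when near-identical arrays were averaged, as happened over all features. With the fibroblast list mean of each array as a covariate, an alternative added after seeing the data, 13 of the 19 were lower and none higher, in a fit that called 18.3% of all features lower. The covariate was 9.16 on both D3 arrays, 10.28 to 10.33 on the R1 arrays and 9.70 on the lowest iPS clone. D3 thus lay outside the values of all other arrays, and that fit cannot show what part fibroblasts had. Antigen presentation by MHC class I, which interferons also raise, was lower in 2 of 13 tested genes, against 5.72% of all features. B2m, the invariant light chain, read 12.39, 12.39, 12.41 and 12.49 in R1 and 10.94 and 10.95 in D3 (log2 difference -1.47, SE 0.25, adjusted p 0.000102, limma), with the lines well apart. B2m was not called when near-identical arrays were averaged. H2-T22, a non-classical heavy chain, fell at least 1.78-fold, and H2-K1, a classical one, differed by -0.47 (adjusted p 0.27, limma). H2-T22 was below background in D3 and passed the filter on dim probes through R1 alone.

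A motif that was not used to choose the interferon genes was searched for in their start regions. The core of the interferon-stimulated response element, searched as GAAANNGAAA on both strands, occurred in 8 of the 10 lower members with a RefSeq promoter (250 bases before to 50 after the start), in 3 of the 8 members that did not pass, and in 943 of 27025 promoters of all genes (3.49%). The 250 bases before the start are shown for the 4 lower members with a match there whose values are given above, with the matches on either strand in capitals, 5′ to 3′ on the strand of the gene (RefSeq, GRCm38.p6). Overlapping matches run together in Irgm1 and Oas1g. The regions are chr19:34583279-34583528 (plus strand) for Ifit3, chr11:48871421-48871670 (minus strand) for Irgm1, chr5:120887614-120887863 (minus strand) for Oas1g and chr12:26456453-26456702 (minus strand) for Rsad2.
Ifit3: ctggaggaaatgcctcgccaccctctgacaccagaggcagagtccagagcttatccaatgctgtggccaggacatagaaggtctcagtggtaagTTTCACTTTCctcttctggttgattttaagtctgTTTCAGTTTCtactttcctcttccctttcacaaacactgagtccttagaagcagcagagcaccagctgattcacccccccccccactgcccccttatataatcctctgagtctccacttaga
Irgm1: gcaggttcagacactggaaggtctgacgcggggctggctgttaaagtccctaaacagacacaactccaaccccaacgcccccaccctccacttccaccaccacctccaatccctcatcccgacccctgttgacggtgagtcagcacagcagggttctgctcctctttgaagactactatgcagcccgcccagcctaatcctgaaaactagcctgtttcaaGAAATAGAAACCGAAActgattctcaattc
Oas1g: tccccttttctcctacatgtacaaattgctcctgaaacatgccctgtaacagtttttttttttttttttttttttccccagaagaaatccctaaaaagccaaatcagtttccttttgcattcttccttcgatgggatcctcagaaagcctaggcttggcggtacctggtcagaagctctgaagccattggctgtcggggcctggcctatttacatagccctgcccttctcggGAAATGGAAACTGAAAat
Rsad2: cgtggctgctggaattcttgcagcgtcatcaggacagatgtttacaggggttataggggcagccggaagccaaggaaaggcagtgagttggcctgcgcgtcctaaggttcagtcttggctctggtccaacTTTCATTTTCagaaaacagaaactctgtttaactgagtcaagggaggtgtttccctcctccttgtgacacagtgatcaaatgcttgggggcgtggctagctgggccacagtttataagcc
In Irgm1 and Oas1g the matches lie within the last 30 bases before the start, in Ifit3 they begin 156 and 122 bases before it and in Rsad2 120 bases before it. A match describes the letters alone and shows no binding.

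Genes of glycolysis and of the hypoxia response were lower in D3 as well. All 27 tested members had a negative difference and 14 of them were called lower, against 5.72% of all features. The median was -0.65, and for 23 members both D3 arrays lay below all R1 arrays, against 22.8% of all features. The list mean was 11.32 to 11.38 on the R1 arrays and 10.66 and 10.63 on the D3 arrays. Slc2a1, the glucose transporter GLUT1, read 13.24, 13.02, 13.66 and 13.02 in R1 and 11.81 and 11.82 in D3, a 2.67-fold fall (SE 0.14, adjusted p 6.27e-09, limma). Hk2, the hexokinase that commits glucose to the pathway, read 14.44, 14.54, 14.52 and 14.29 in R1 and 13.69 and 13.60 in D3 (log2 difference -0.80, SE 0.12, adjusted p 2.04e-05, limma). Ldha, which makes lactate, read 14.78, 14.82, 14.95 and 14.77 in R1 and 14.20 and 14.16 in D3 (log2 difference -0.65, SE 0.11, adjusted p 0.000116, limma). For all 3 genes the D3 arrays lay below both the R1 arrays and the lowest iPS clone.

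Members of the list outside glycolysis included both called and uncalled genes. P4ha1, a prolyl hydroxylase needed for collagen folding, read 8.58, 8.57, 8.65 and 8.58 in R1 and 7.17 and 7.09 in D3, a 2.77-fold fall (SE 0.20, adjusted p 2.24e-06, limma). Egln3, an oxygen sensor that marks these factors for degradation, read 10.38, 10.53, 10.47 and 10.63 in R1 and 8.83 and 8.74 in D3, a 3.29-fold fall (SE 0.44, adjusted p 0.00796, limma). Both stood apart between the lines on every array. Vegfa, which drives vessel growth, differed by -0.45 (adjusted p 0.0816), and the late glycolytic genes Pkm and Gapdh by -0.25 (adjusted p 0.13) and -0.06 (adjusted p 0.34, limma). Without either one of the D3 arrays fewer members were called lower, as happened over all features, and Egln3 was not called. With near-identical arrays averaged, only Slc2a1 of the list kept its call. In the fit with the fibroblast list mean as a covariate 25 of the 27 were lower, against the same 18.3% of all features. D3 lay outside the values of that covariate on all other arrays, so the fit cannot show what part fibroblasts had.

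The core of the hypoxia response element, searched as ACGTG on both strands, was found in 7 of the 12 lower members with a promoter, in 8 of the 11 that did not pass and in 5315 of 27025 promoters of all genes (19.7%). The shares were 58.3% of the lower members and 72.7% of the others. The regions before the start of Slc2a1 at chr4:119108495-119108744 (plus strand) and of Ldha at chr7:46845554-46845803 (plus strand) are shown as those of the glucose transporter and the lactate enzyme described above, with matches on either strand in capitals (RefSeq, GRCm38.p6).
Slc2a1: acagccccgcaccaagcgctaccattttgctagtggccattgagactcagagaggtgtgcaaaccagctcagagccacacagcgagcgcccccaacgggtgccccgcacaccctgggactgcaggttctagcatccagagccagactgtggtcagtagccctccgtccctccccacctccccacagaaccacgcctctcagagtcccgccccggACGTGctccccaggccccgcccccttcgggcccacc
Ldha: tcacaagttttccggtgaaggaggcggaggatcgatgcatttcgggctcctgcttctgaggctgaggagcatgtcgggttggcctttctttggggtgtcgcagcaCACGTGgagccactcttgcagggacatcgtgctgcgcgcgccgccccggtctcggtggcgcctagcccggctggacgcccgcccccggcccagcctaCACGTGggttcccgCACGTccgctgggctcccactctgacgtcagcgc
Slc2a1 has 1 match, 36 bases before the start, and Ldha has 5, of which 2 pairs overlap as palindromes.

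Few pluripotency genes passed the test. Of 32 tested members, 1 was lower (Nanog) and 1 higher (Sall4), against 5.72% and 5.28% of all features, and the list median was -0.13. The difference was negative for 22 members, and for 17 both D3 arrays lay below all R1 arrays, against 22.8% of all features. Nanog, which guards the undifferentiated state, read 13.17, 12.96, 13.18 and 12.93 in R1 and 12.09 and 12.10 in D3, a 1.95-fold fall (log2 difference -0.96, SE 0.20, adjusted p 0.000837, limma). Every D3 array lay below every R1 array for Nanog, which was not called when near-identical arrays were averaged. Sall4, a zinc-finger partner of Pou5f1, read 9.67, 9.81, 9.47 and 9.42 in R1 and 10.04 and 9.79 in D3 (log2 difference 0.32, adjusted p 0.046, limma), so the lines overlapped. Its call was lost without R1 replicate 3 (adjusted p 0.129), R1 replicate 4 (0.143), D3 replicate 1 (0.562) or D3 replicate 2 (0.0588).

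The core factors themselves did not pass. Pou5f1 read 13.48, 13.46, 13.36 and 13.63 in R1 and 13.44 and 13.30 in D3 (adjusted p 0.764, limma). Sox2 read 10.73, 10.62, 10.67 and 10.66 in R1 and 10.62 and 10.46 in D3 (adjusted p 0.761, limma). The lines overlapped for Pou5f1, and D3 replicate 1 reached the lowest R1 array to within 0.01 for Sox2. Esrrb, an orphan nuclear receptor of the naive state, differed by -0.03, and the Krüppel-like factors Klf2 and Klf4 differed by 0.19 and -0.34, with adjusted p-values of 0.961, 0.687 and 0.55 (limma). Tbx3, the factor tested in the iPS clones, read 11.23, 11.04, 11.20 and 11.22 in R1 and 10.40 and 10.41 in D3, and Zfp42 (Rex1), a marker of naive cells, read 12.82, 12.75, 12.77 and 12.91 in R1 and 12.41 and 12.31 in D3. D3 was below all R1 arrays for both Tbx3 (log2 difference -0.77, SE 0.27, adjusted p 0.0604) and Zfp42 (-0.45, SE 0.19, adjusted p 0.12), which did not pass in the limma fit.

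Genes of the LIF and Stat3 response were lower in 6 of 24 cases and higher in none, against 5.72% and 5.28% of all features. Their median was -0.28. Ier3, an early-response gene, read 11.64, 11.88, 11.76 and 11.87 in R1 and 10.92 and 10.76 in D3 (log2 difference -0.95, SE 0.13, adjusted p 3.71e-06, limma). Socs3, the feedback inhibitor of the pathway, read 11.92 to 12.06 in R1 and 11.30 and 11.39 in D3 (log2 difference -0.66, SE 0.22, adjusted p 0.0465, limma), a call that was lost without any 1 of the 6 arrays (adjusted p 0.0612 to 0.295). Each was lower in both D3 arrays than in any R1 array. Stat3 itself differed by 0.16 (adjusted p 0.436), and its targets Pim1 and Junb by 0.03 and 0.12, none of which passed. Lower members were fewer without either one of the D3 arrays, as happened over all features.

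Some genes of the primed epiblast were higher in D3. Of 14 tested members of that list, 4 were higher and none was lower, against 5.28% and 5.72% of all features. The list median was 0.08. Pou3f1 (Oct6), a factor of the primed epiblast, read 9.42, 9.64, 9.33 and 9.39 in R1 and 10.71 and 10.74 in D3 (log2 difference 1.28, SE 0.23, adjusted p 0.000166, limma). Lefty1, an inhibitor of Nodal signalling, read 13.19, 13.16, 13.21 and 13.18 in R1 and 14.12 and 14.07 in D3 (log2 difference 0.91, SE 0.19, adjusted p 0.00114, limma). Dnmt3b, which lays down new DNA methylation, read 12.57, 12.57, 12.63 and 12.56 in R1 and 13.49 and 13.52 in D3 (log2 difference 0.93, SE 0.23, adjusted p 0.00568, limma). The lines were fully apart for all 3 genes, and the fourth called member was Sall2. None of the 4 was called when near-identical arrays were averaged. Otx2 (0.01, adjusted p 0.99), Nodal (-0.09, adjusted p 0.78) and Lefty2 (0.42, adjusted p 0.18) did not pass, and Fgf5, a defining primed marker, stood above background on 1 of 2 D3 arrays and on no R1 array.

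Without either one of the D3 arrays Dnmt3b and Sall2 were not called, and calls were also fewer over all features. Dnmt3b is also counted among 18 tested genes of DNA methylation and Polycomb silencing. Against 5.28% and 5.72% of all features, 5 of the 18 were higher and none lower. The others were Mbd3 (log2 difference 0.55), Cbx2 (0.43), Ehmt1 (0.35) and Pcgf6 (0.29), a subunit of the NuRD complex, a Polycomb subunit, a histone H3 methyltransferase and a subunit of a variant Polycomb complex. These were small differences. None of the 18 was called without D3 replicate 1 and fewer were called without D3 replicate 2, while calls also fell over all features. Dnmt1 (0.03, adjusted p 0.96), Dnmt3l (-0.05, adjusted p 0.92) and Ezh2 (-0.01, adjusted p 0.99) did not pass. Dusp4, a phosphatase that switches off ERK, was among the highest genes of D3, at 9.25, 9.42, 9.30 and 9.38 in R1 and 10.87 and 10.76 in D3 (log2 difference 1.48, SE 0.20, adjusted p 1.61e-06, limma). Of 13 tested genes of Fgf and ERK feedback, 2 were higher (Dusp4 and Spred2) and 1 lower (Ier3), against 5.28% and 5.72% of all features. Spred2 differed by 0.52 (adjusted p 0.00821, limma) and was not called without D3 replicate 2. Spry4 (-0.32, adjusted p 0.54), Dusp6 (0.21, adjusted p 0.76) and Etv5 (-0.08, adjusted p 0.84) of the same list did not pass.

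**Figure D3:**
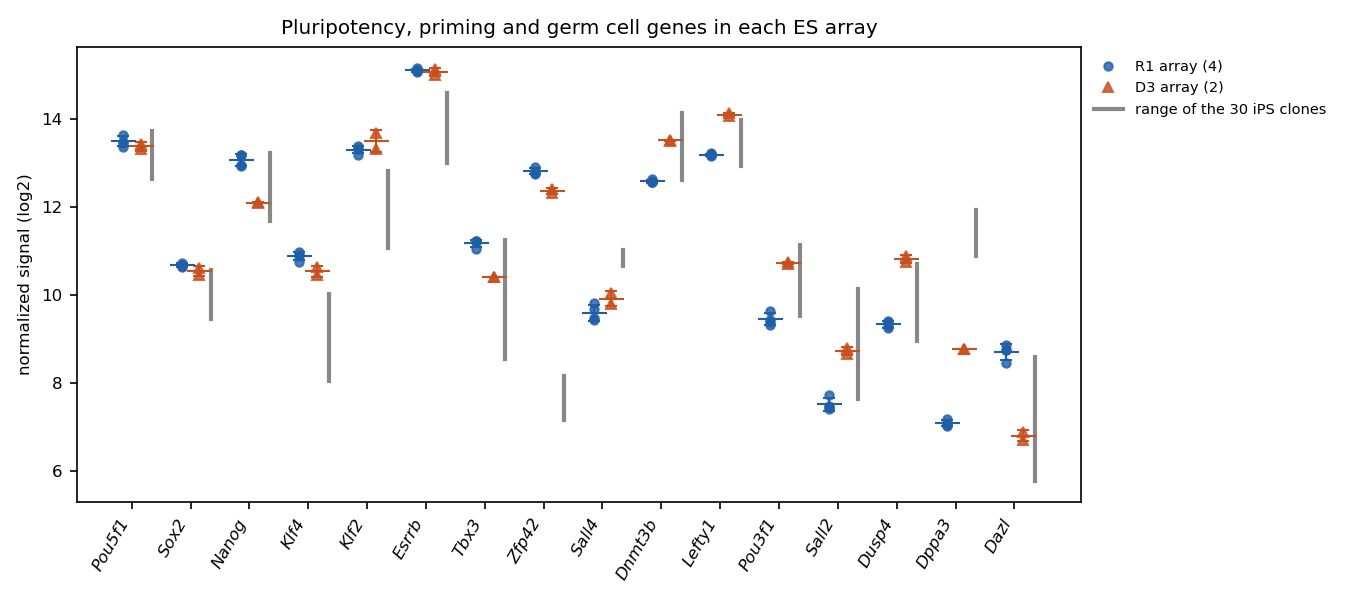
Normalized signal (log2, vertical axis) of pluripotency, priming and germ cell genes on the 4 R1 arrays (circles) and the 2 D3 arrays (triangles), with bars for the mean and SD of each line and a grey bar for the range of the 30 iPS clones. Pou5f1 overlaps between the lines, Nanog and Dazl are lower in D3, and Dnmt3b, Lefty1, Pou3f1, Dusp4 and Dppa3 are higher.

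Germ cell genes moved in both directions. Of 22 tested, 6 were lower and 3 higher in D3, against 5.72% and 5.28% of all features. The median was -0.35 (-0.26 with signals below background raised to its limit). Dppa3 (Stella), a factor of the egg and of primordial germ cells that is also on in naive ES cells, read 7.10, 7.02, 7.18 and 7.05 in R1 and 8.77 on both D3 arrays, a 3.21-fold rise (SE 0.18, adjusted p 1.02e-08, limma). Both lines lay below all iPS clones for Dppa3. Dazl, an RNA-binding protein of germ cells, read 8.75, 8.75, 8.86 and 8.45 in R1 and 6.71 and 6.89 in D3, a fall of at least 3.31-fold (SE 0.34, adjusted p 0.000176, limma). It was below background in D3 and passed the filter on dim probes through R1 alone. Tfap2c, a transcription factor of primordial germ cells and trophoblast, was higher in D3 (log2 difference 0.67, adjusted p 0.00412, limma) and was not called without D3 replicate 2 (adjusted p 0.0971). Without either one of the D3 arrays fewer members of the list were called in each direction, as happened over all features. Tcstv3, a gene of the 2-cell-like state, read 11.20, 11.07, 11.06 and 11.14 in R1 and 9.54 and 9.48 in D3 (log2 difference -1.61, adjusted p 0.00839, limma), and its other probe was lower too (-1.23). Its call was lost without D3 replicate 1 (adjusted p 0.092) or D3 replicate 2 (adjusted p 0.102).

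Among cell cycle genes the largest difference was that of Plk1, a kinase of mitosis. Plk1 read 11.29, 11.28, 11.30 and 11.27 in R1 and 8.68 and 8.72 in D3, a 6.01-fold fall (SE 0.12, adjusted p 8.16e-18, limma). R1 itself lay below all iPS clones, and D3 below R1. This value rests on 1 probe. Other mitotic genes did not move with it, as Aurka (-0.29, adjusted p 0.1), Aurkb (-0.10, adjusted p 0.78), Cdk1 (-0.20, adjusted p 0.24), Cdc20 (0.19, adjusted p 0.29) and Bub1b (0.07, adjusted p 0.87) did not pass. Of 36 tested cell cycle genes, 3 were higher (Ccne1, Cdc25a and Foxm1) and 3 lower (Plk1, Ccnd2 and Ccnd3). These counts were near the shares of all features (5.28% and 5.72%), and the median was 0.02. Foxm1 and Ccnd3 were not called without either one of the D3 arrays, nor was Cdc25a without D3 replicate 1. The inhibitors of the Ink4 and Arf locus were lower in D3. Cdkn2b (p15) read 11.01, 10.86, 10.96 and 11.02 in R1 and 7.97 and 7.96 in D3, a 7.99-fold fall (SE 0.52, adjusted p 0.000108, limma), and its neighbour Cdkn2a read 8.84, 9.00, 9.07 and 9.14 in R1 and 8.12 and 7.98 in D3 (log2 difference -0.96, SE 0.17, adjusted p 0.000153, limma). D3 lay below every R1 array and every iPS clone for both inhibitors. Neither was called when near-identical arrays were averaged. Cdkn1a (p21), a target of p53, differed by -0.38 (adjusted p 0.49).

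The genes that stood highest in D3 shared no list. Arhgap6 read 5.67, 5.94, 5.52 and 5.77 in R1, below background throughout, and 8.48 and 8.79 in D3, a rise of at least 3.31-fold (SE 0.25, adjusted p 1.72e-10, limma). Tnnt2, cardiac troponin T, read 7.10, 6.93, 7.15 and 7.15 in R1 and 9.29 and 9.11 in D3, a 4.36-fold rise (SE 0.19, adjusted p 6e-10, limma). Gstt2, a glutathione transferase, read 10.12, 10.13, 10.15 and 10.02 in R1 and 12.06 and 11.87 in D3, a 3.62-fold rise (SE 0.30, adjusted p 4.1e-05, limma). For these genes the D3 arrays lay above all 30 iPS clones, with R1 among the clones. That D3 lay above all R1 arrays was part of the rule that named them.

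In other genes it was R1 that stood outside the clones. Plvap, a protein of endothelial diaphragms, read 7.27, 7.17, 7.28 and 7.35 in R1 and 9.25 and 9.31 in D3 (log2 difference 2.02, SE 0.24, adjusted p 1.47e-07, limma). Pim2, a survival kinase, and Prom1 (CD133), a surface protein of progenitor cells, were 3.40-fold and 2.77-fold higher in D3. The D3 arrays lay within the range of the iPS clones for all 3 genes, and the R1 arrays below it. Sox9, a transcription factor of cartilage and many epithelia, rose 2.71-fold but was not called without D3 replicate 1 (adjusted p 0.0538). Pdzk1, a scaffold of membrane transporters, Car4, a carbonic anhydrase, and Cphx1, a homeobox gene of the early embryo, completed the 12 highest, at 2.87-fold, 2.53-fold and 2.50-fold. Pdzk1 was not called without either one of the D3 arrays (adjusted p 0.132 and 0.134). Car4 was not called without D3 replicate 1 (0.0802), D3 replicate 2 (0.329) or R1 replicate 1 (0.0606). Of 15 tested mesoderm genes, 2 were higher (Tnnt2 and Hoxb1) and 1 was lower (Myl4), against 5.28% and 5.72% of all features. Nkx2-5, a cardiac factor, differed by 0.26 (adjusted p 0.25, limma).

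The lines were also placed against the 30 iPS clones. Among the 184 features at least 2-fold lower in D3, both D3 arrays lay below all clones for 84, all 4 R1 arrays lay above all clones for 63, and both held for 6. Neither line lay outside the clones for 43. Among the 41 features at least 2-fold higher, D3 lay above all clones for 14, R1 lay below all clones for 17, and neither line lay outside them for 10. Over all tested features, D3 lay below all clones in 11.1% and above them in 17.6%. R1 lay below all clones in 8.59% of all tested features and above them in 13.0%. Since features chosen for a difference between the lines tend to lie outside any other group, these counts only describe the arrays.

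**Figure D4:**
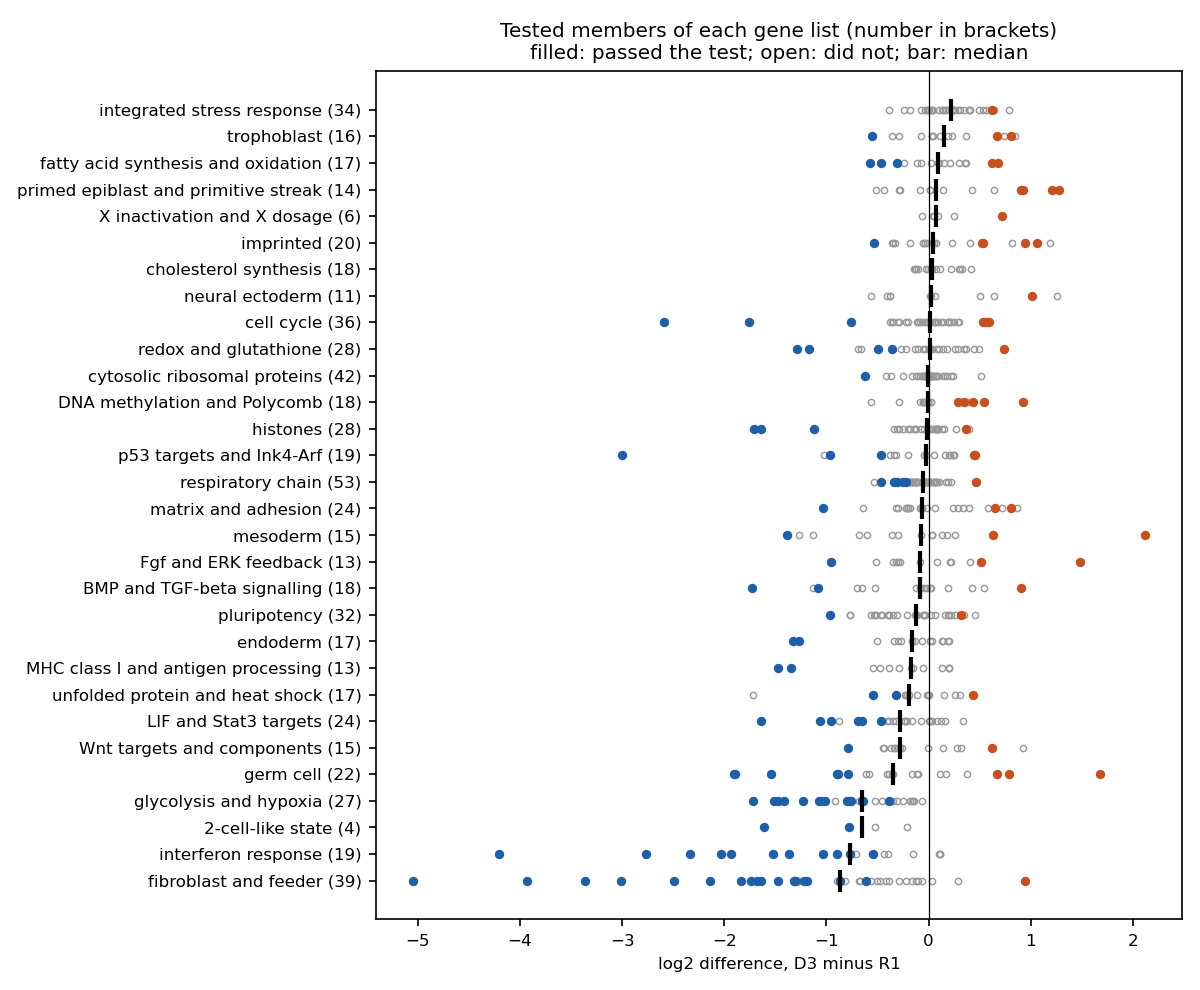
Difference between D3 and R1 (horizontal axis, log2) of the tested members of each gene list, with the number tested in brackets, filled points for called genes, open points for the others and a bar at the median. The fibroblast, interferon and glycolysis lists have the lowest medians among lists of more than 4 tested members, at -0.86, -0.77 and -0.65.

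Most other lists had medians near that of all features. None of 18 tested genes of cholesterol synthesis and 1 of 42 cytosolic ribosomal protein genes (Rpl29, lower in D3) was called, against 11% of all features. Of 34 tested genes of the integrated stress response, the program of the factor Atf4, 1 was higher and none lower, against 5.28% and 5.72%. That gene was the neutral amino acid transporter Slc1a4 (log2 difference 0.62, adjusted p 0.00578, limma), which was not called without either one of the D3 arrays (adjusted p 0.0959 and 0.0637). For 19 of the 34, both D3 arrays lay above all R1 arrays, against 28.1% of all features, and the list median was 0.21. Among imprinted genes 4 of 20 were higher (Dlk1, Dcn, Snrpn and Impact) and 1 lower (Slc38a4), against 5.28% and 5.72% of all features. Snrpn and Impact were not called without either one of the D3 arrays or with arrays scaled by their medians. Dlk1, a paternally expressed membrane protein, read 8.50, 8.43, 8.42 and 8.44 in R1 and 9.56 and 9.46 in D3 (log2 difference 1.06, SE 0.15, adjusted p 7.93e-06, limma). Metallothionein Mt1, which binds zinc and other metals, was higher in D3 (log2 difference 0.74, SE 0.07, adjusted p 1.15e-09, limma), and Hmox1, the haem oxygenase induced by oxidative stress, was lower (-1.17, SE 0.17, adjusted p 6.86e-06, limma).

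The differences were spread over the genome. The median difference per chromosome ran from -0.01 on chromosome 6 to 0.07 on chromosome 11. Single D3 arrays against the R1 mean gave medians of -0.01 to 0.08, and single R1 arrays against the other R1 arrays gave -0.02 to 0.03. For scale, the log2 of 3 copies over 2 is 0.585, and chromosome copy number was not tested. On the X chromosome 22 of 265 tested genes were higher and 14 lower, with a median of 0.06, against 427 and 485 of 8317 autosomal genes and a median of 0.03. Eif2s3y, a Y-linked translation factor, read 11.32, 10.97, 11.22 and 11.15 in R1 and 10.47 and 10.55 in D3 (log2 difference -0.65, adjusted p 0.357, limma). Under the alternatives its difference ran from -0.73 to 0.40. Eif2s3y was above background in both lines, while the other measured Y-linked genes were below background on all 6 arrays.

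**Figure D5:**
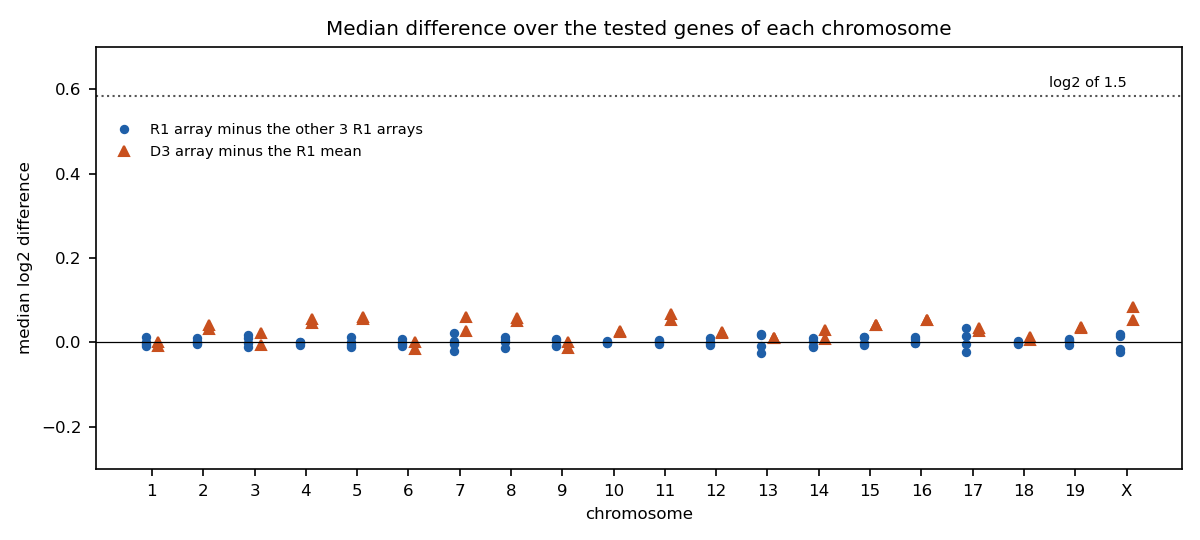
Median difference over the tested genes of each chromosome (vertical axis, log2), for each D3 array against the mean of R1 (triangles) and each R1 array against the other R1 arrays (circles), with a line at the log2 of 1.5. All medians of the D3 arrays lie between -0.01 and 0.08.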

How the data were processed

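Total RNA from 36 mouse samples was measured on a one-colour Illumina bead array. The authors deposited signal intensities read with BeadStudio (per the submitters' processing notes, with no version), unscaled between arrays and already background-subtracted, as 25.4% to 29.6% of the measured probes were negative. A second deposited table of scaled intensity values served as an alternative here. The headers name no slides. Of 24613 probes, 5893 held values from -5.3 to 14.7 on all arrays and were dropped as placeholders (the nearest kept probe spanned -7.6 to 17.4), leaving 18720.

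In limma 3.58.1 (R 4.3.3), background correction used normexp with the saddle-point method and an offset of 16, followed by quantile normalization and log2. Background limits, the 99th percentile of a normal distribution fitted to each array's negative signals, were 52.4 to 59.6 intensity units on the ES arrays. Probes above their limit on at least 2 of the 6 ES arrays were kept, 1 per gene (the highest mean), which gave 9779 features, 8586 with a symbol. A probe could thus pass through either line alone. Of all probes 20984 had 1 symbol, 1 had several and 3628 had none, and 20968 matched a RefSeq gene.

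A linear model with 1 mean per group was fitted over all 36 arrays, with an intensity trend, and D3 minus R1 was tested 2-sided with Benjamini-Hochberg adjustment over all features at 0.05. The fit was tested on simulated data. Where a group was below background on all its arrays, the fold is a bound, taken against each array's lowest normalized signal among probes that passed the limit.

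Genes were named by a rule: the 12 called genes furthest up and the 12 furthest down whose symbol is informative and whose lines did not overlap, up to 4 members of each list by p, 8 pluripotency factors and the Y-linked genes. The members and lists were chosen with earlier results of these data known, and some lists share members. Other genes and the families by symbol were named after their values were seen. Alternatives changed the scaling, the background correction, the filter, the fit and the arrays left out.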

Additional observations from a re-analysis of the deposited data

Results flagged for a closer look

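The 4 R1 arrays of each of the 138 named genes with a test were searched for 1 array far from the other 3, by the gap to its nearest neighbour as a share of the range, a rule that chance meets in about 1 of 20 groups. It singled out 6 genes, about as many as that rate would give by chance among 138. Dnmt3b was 12.63 in R1 replicate 3 against 12.56 to 12.57 in the others, and P4ha1 was 8.65 in R1 replicate 3 against 8.57 to 8.58. Spred2 was 7.06 in R1 replicate 3 against 7.33 to 7.37. Sall2 was 7.74 in R1 replicate 1 against 7.42 to 7.47, and Hyou1 was 8.50 in R1 replicate 1 against 8.63 to 8.64. Tfap2c was 10.51 in R1 replicate 4 against 10.41 to 10.42. Neither D3 array lay within the range of the R1 arrays for any of the 6 genes.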

How the results depend on the processing

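Of 99 named genes that were called, 22 kept their call and direction under all 20 alternatives, among them Mmp13, Mmp3, Mgp, Ccl5, Cxcl1, Cxcl5, Ifi27, Ifit3, Ifitm3, Slc2a1, Dppa3, Dusp4, Arhgap6, Tnnt2, Plvap and Plk1. The fit reported above called 1075 features, 516 higher and 559 lower in D3, with 41 and 184 at least 2-fold. Leaving out 1 array gave 335 to 911 calls (141 to 449 higher, 194 to 466 lower, and 26 to 41 and 114 to 173 at least 2-fold), the lowest without a D3 array. Averaging near-identical arrays gave 70 calls (16 higher, 54 lower, 11 and 47 at least 2-fold), with 77 named genes no longer called. The 6 ES arrays alone gave 3349 calls (1737 higher, 1612 lower) and array weights 3606 (1981 and 1625). The spread over all groups, which includes that between iPS clones, was not used when the 6 arrays were fitted alone. Scaling arrays by their medians gave 249 higher features. At least 2-fold, the scaled table gave 94 higher and 396 lower, no background correction 113 and 334, and an offset of 50 gave 25 higher. Medians by chromosome spanned 0.0758, and 0.116 in the scaled table, 0.05004 with no filter, 0.0673 to 0.0982 with 1 array left out and 0.139 with the covariate. With the fibroblast list mean of each array as a covariate, added after seeing the data, there were 3499 calls (1706 higher, 1793 lower, 329 and 407 at least 2-fold). Both D3 arrays had a lower covariate than every other array. Of the named genes called in this fit or the one reported above, Inhbb (0.31, adjusted p 0.335), Insig1 (-0.39, adjusted p 0.0219) and H2bc4 (0.28, adjusted p 0.425) turned direction. Named genes without a call above also changed sign under some alternatives, among them Bmp4 (up to 0.58), Foxa1 (0.52) and Eif2s3y (0.40). The causes of these shifts were not tested. Deviations of same-numbered arrays of the lines had correlations of 0.05 and -0.06. The deviations of the 2 D3 arrays mirror each other, so these values cannot show whether same-numbered arrays shared a run. The fit with the replicate block gave 1211 calls (552 higher, 659 lower). A slide block was not run, as the headers name no slides. Signals below background limit 60 of the 184 large falls to bounds.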

Other observations

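Some called genes outside the lists differed widely between the lines and were named after their values were seen. Oas2, an antiviral enzyme of the same family as Oas1g, fell at least 4.95-fold in D3, and Ifi205, an interferon-inducible protein, at least 3.18-fold, with all R1 arrays above the highest iPS clone for both. Efhc2, an X-linked gene, read 10.37, 10.34, 10.53 and 10.34 in R1 and 7.86 and 7.98 in D3, and Xlr3b, of an X-linked imprinted cluster, read 9.53, 9.31, 9.45 and 9.25 in R1 and 7.07 and 7.19 in D3. Klf7, a Krüppel-like factor, read 9.41, 9.45, 9.35 and 9.34 in R1 and 10.43 and 10.53 in D3, so that R1 lay below the 10.31 to 11.08 of the iPS clones and D3 within it.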
